A study of Homo sapiens with 40 samples.

Results

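The 292 mRNAs described here are the numbered ZNF genes that HEK293 cells expressed, and they were followed through the RNA bound by 3 RNA helicases, through sucrose gradients after CNOT1 depletion and through depletion of the TNRC6 proteins. Members were chosen by name and by measured level: a row of the count tables was taken where its symbol was ZNF followed by a number and at most 1 letter, and where its mean unscaled CPM (counts scaled to a common library total) reached 10 over the 4 input libraries of the control siRNA gradients. Of 55765 rows, 554 carried such a symbol, 292 reached the level and 262 did not. ZNF672 (9.99 CPM), ZNF513 (9.96 CPM) and ZNF519 (9.89 CPM) lay just below it, and ZNF225 (10.1 CPM), ZNF416 (10.1 CPM) and ZNF383 (10.2 CPM) just above. In all 9141 rows reached this level, and the 8849 others among them served as a second reference, which shares the floor with the members but not their abundance, since its median was 51.7 unscaled CPM against 23.9 in members.

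HEK293 is an established line of human embryonic kidney cells, and 40 RNA-Seq libraries in 12 groups were used. In the RNA immunoprecipitation (RIP) experiment, endogenous eIF4A1, eIF4A2 or DDX6 was immunoprecipitated from native lysates (IP, n = 3 each) and compared with total RNA (n = 3). A library from a control antibody was not analysed here, so that an IP value is a share of IP RNA against a share of total RNA. In the gradient experiment, cells carried a control siRNA or an siRNA against CNOT1, and each arm gave input, subpolysomal (fractions 1 to 5) and polysomal (fractions 6 to 11) RNA with n = 4 each. In the last experiment, total RNA was taken after a control siRNA or after siRNAs against TNRC6A and TNRC6B together, with n = 2 each. Nothing in the labels says that replicates came from separate cultures, so p-values measure the spread between these samples.

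Most ZNF proteins bind DNA through C2H2 zinc fingers, short folds in which a pair of cysteines and a pair of histidines hold a zinc ion, and neighbouring fingers are commonly joined by a conserved linker of a threonine, a glycine, a glutamate, a lysine and a proline. A large part of the family also carries a KRAB domain, which recruits the corepressor TRIM28 and with it the histone methyltransferase SETDB1, and many KRAB proteins silence transposable elements. The genes lie in clusters, above all on chromosome 19, and the repeated fingers give their coding sequences (CDS) a repetitive, AT-rich and purine-rich makeup. eIF4A1 unwinds 5′UTRs for initiation, eIF4A2 and DDX6 bind the CCR4-NOT complex, whose scaffold is CNOT1 and which shortens poly(A) tails, and the TNRC6 proteins link Argonaute to that complex in microRNA silencing.

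The linker codons are the sequence that the family shares most plainly. A match to the linker was found in 209 of the 287 members with an annotated CDS (72.8%) and in 0.697% of the other genes above this level. The 1223 linkers were spelled by 146 different runs of codons, and the commonest, ACTGGAGAGAAACCC, made up 15.5% of them. The windows below show the linker, in capitals with its 15 coding bases, in members on which the results turn, read 5′ to 3′ on the coding strand of GRCh37 (which has the coordinates of hg19, the build the authors aligned to). Every window lies in coding exon sequence.

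ZNF121, chr19:9677267-9677296, minus strand: acccatACTGGGGAGAAACCCtatgaatgt
ZNF621, chr3:40573775-40573804, plus strand: agtcatACTGGGGAAAAGCCCtttaagtgt
ZNF300, chr5:150275820-150275849, minus strand: actcatACTGGGGAGAAACCTtatgattgt
ZNF440, chr19:11942484-11942513, plus strand: gatcacACTGGAGAGAAACCCaatgcttgt
ZNF77, chr19:2934315-2934344, minus strand: actcacACAGGAGAGAAACCCtatgagtgt
ZNF711, chrX:84526124-84526153, plus strand: acccatACTGGTGAGAAGCCAtatcagtgt
ZNF664, chr12:124497013-124497042, plus strand: gttcatACAGGTGAGAAACCGtatgtctgt
ZNF324B, chr19:58967479-58967508, plus strand: acgcacACAGGCGAGAAGCCCttcgtatgc
ZNF778, chr16:89294020-89294049, plus strand: acacacACGGGCGAGAAGCCAtacacgtgt

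The codons of Glu and Lys are made of purines, so every linker held at least 1 of the purine tetramers AAGA plus AGAA plus GAAA plus GAGA plus AGAG plus GGAA plus AAAA plus GAAG, which were counted on the coding strand without overlaps. These tetramers stood at a median of 4.32 per 100 nt in the CDS of members against 3.22 in the other genes above this level, and at 2.43 against 1.61 in the 5′UTR. Stretches of 21 bases, the linker with a codon on each side, made up 4.48% of the members' CDS and held 8.60% of its tetramers. The median GC content of the CDS was 44.1% in members and 50.5% in the others. Chromosome 19 held 42.6% of the members that could be placed and 4.85% of the others.

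The bases around the linker also spell a microRNA match. The mature miR-181a-5p in RefSeq, with its seed (bases 2 to 8) in capitals, is

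miR-181a-5p: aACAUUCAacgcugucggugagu

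and the complement of that seed, TGAATGT, occurred in the CDS of 63.4% of members against 13.5% of the other genes above this level. It is seen at the end of the ZNF121 window above, where the first codons of the next finger follow the linker, and 18.9% of the 1000 such matches in members lay in a linker window of this kind. A match is a description of letters and not a tested site.

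By domain, the members split into 164 with a match to a KRAB A-box pattern and 123 without it. A missing match does not show that the domain is absent, because the pattern was read in 1 annotated transcript per gene and ZNF77, for instance, had none. Members with the pattern had a median of 12 fingers and 6 linkers, and those without it 7 fingers and no linker. The annotation gave no CDS for ZNF204P, ZNF252P, ZNF271, ZNF720 and ZNF767. Since clustered ZNF genes and such pseudogene rows can share reads with near-identical copies, values of single paralogues (ZNF587, ZNF417, ZNF286A and the like) are uncertain.

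Most members were scarce mRNAs. In control input the median per length was 6.06 CPM per kb of transcript. On the scale per length, ZNF664, a protein made almost wholly of fingers, stood highest with 109 CPM per kb, followed by ZNF146, likewise a protein of fingers alone, with 97.5 CPM per kb. ZNF638, a nuclear RNA- and DNA-binding protein, reached 31.8 CPM per kb, and ZNF207, which carries Bub3 to kinetochores, 21.7 CPM per kb.

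Library totals ran from 15353317 to 46018900 counts. The targeted mRNAs fell in the libraries labelled for their siRNA with 1 exception, the polysomal pair of replicate 3. The library labelled control siRNA held 27.4 unscaled CPM of CNOT1 against 446.8 to 468.8 in the other polysomal controls, and the library labelled CNOT1 siRNA held 589.8 against 22.9 to 31.5 in its group. CNOT1 counts in these libraries therefore go against both labels. The labels were kept, and the main counts that rest on polysomal RNA are given with these libraries and without them. Some medians and many values of single members are given in 1 fit only, as labelled unless stated otherwise. After TNRC6A/B siRNA, TNRC6A stood at 39.2 and 66.2 unscaled CPM against 172.3 and 196.6 in controls. The identity of the cell line was not checked against marker genes.

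Members gave different shares of the counts in the 12 groups. They made up 1.12 to 1.20% of the counts in control input and 1.11 to 1.14% after CNOT1 siRNA, with no overlap to subpolysomal RNA, where they made up 1.62 to 2.00% in control cells and 1.62 to 1.87% after CNOT1 siRNA. In polysomal RNA they made up 0.991 to 1.04% in the libraries labelled control and 0.961 to 1.06% in those labelled CNOT1 siRNA. In the RIP experiment the share was 1.06 to 1.26% in total RNA, 1.47 to 1.66% in eIF4A1 IPs, 1.67 to 1.88% in eIF4A2 IPs and 1.22 to 1.37% in DDX6 IPs. These shares are unscaled and weigh abundant members most. With edgeR's TMM factors the median log2 difference of members from total RNA was -0.03, 0.14 and -0.09 in this order. Control and TNRC6A/B siRNA total RNA overlapped, at 1.01 to 1.19% and 1.01 to 1.10%.

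ZNF mRNAs were lower in polysomal than in subpolysomal RNA. In control cells 207 of the 292 members were lower in polysomal than in subpolysomal RNA and 19 were higher, where 37% and 34.8% of all 16776 genes tested were called in these directions. The median log2 difference was -0.86 in members, -0.02 over all genes tested and 0.38 in the other genes above this level. When the polysomal pair of replicate 3 was left out, the counts were 214 lower and 17 higher, against 38.4% and 33.7% of all genes, and the median was -0.80. Set against input, the gap lay mainly on the subpolysomal side: after CNOT1 siRNA, in libraries that the level rule did not use, members held a mean of 1.12% of the counts in input, 1.76% in subpolysomal and 1.01% in polysomal RNA (n = 4 each), with no overlap between these ranges. Such shares do not say how many molecules a fraction held. Calls were made with edgeR's quasi-likelihood test at a false discovery rate (adjusted p) of 0.05 over all genes of the fit, and all members passed the filter on low counts.

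**Figure D1:**
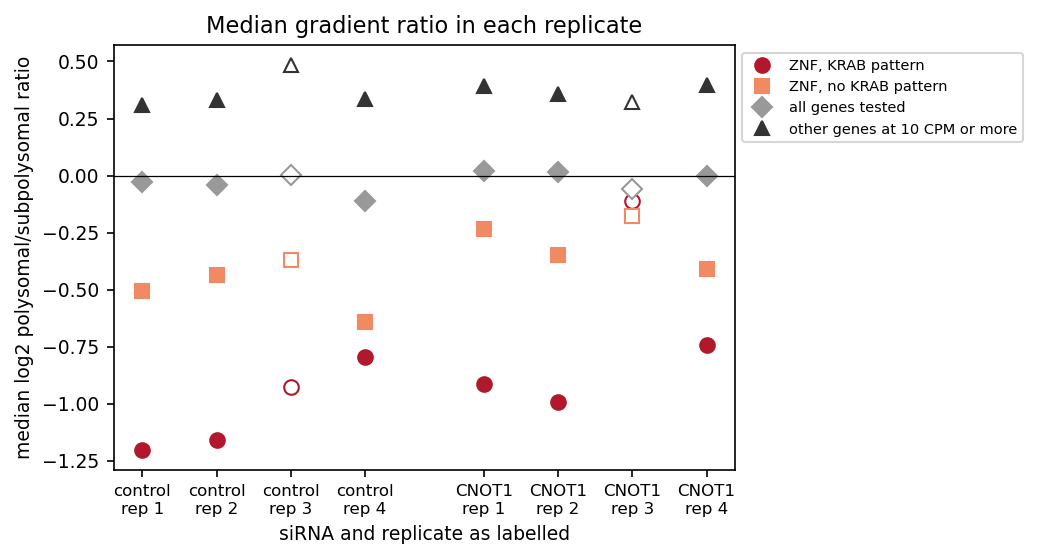
Median log2 ratio of polysomal to subpolysomal CPM (0.5 CPM added) in each of the 4 replicates, for control and CNOT1 siRNA. The series are KRAB members (n = 164), members without the pattern (n = 123), all genes tested and the other genes above this level. Hollow points mark replicate 3, whose polysomal libraries carry CNOT1 counts that go against their labels. In the control replicates the medians lie between -1.21 and -0.80 for KRAB members and between -0.64 and -0.37 for members without the pattern. Among these replicates they lie closest in replicate 4, at -0.80 and -0.64. In CNOT1 siRNA replicate 3 the order is the reverse, with -0.11 for KRAB members and -0.18 for the rest. Both series of members lie below the median of all genes in every replicate.

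The median ratio of members lay below that of all genes tested in each replicate. With 0.5 CPM added, the median log2 ratio of members was -0.96, -0.95, -0.74 and -0.73 in control replicates 1 to 4, and -0.78, -0.80, -0.16 and -0.62 after CNOT1 siRNA. The value of -0.16 belongs to replicate 3, and the other 7 lie apart from it. Over all genes tested the medians ran from -0.11 to 0.02, and over the other genes above this level from 0.31 to 0.49.

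ZNF121, a C2H2 protein in which no KRAB pattern was found, had the most negative difference of all members in both fits. Its CPM, here and below adjusted by edgeR's TMM factors, was 700, 647, 463 and 594 in control subpolysomal RNA and 61.7, 61.9, 42.6 and 68.6 in polysomal RNA. The groups stood far apart, with a log2 difference of -3.36 ± 0.18 (SE; adjusted p = 6.54e-14) as labelled and -3.22 ± 0.15 (adjusted p = 1.71e-14) without the libraries of replicate 3. After CNOT1 siRNA its subpolysomal values were 369, 293, 242 and 338 CPM and its polysomal values 36.7, 41.0, 65.4 and 44.8 CPM. The difference was -2.73 ± 0.18 (adjusted p = 2.41e-12) as labelled and -2.92 ± 0.15 (adjusted p = 1.02e-13) without the pair.

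Next in size among members with a CDS were KRAB zinc finger mRNAs. ZNF621 held 259, 228, 209 and 197 CPM in control subpolysomal RNA and 31.8, 30.6, 27.9 and 30.9 CPM in polysomal RNA, a difference of -2.88 ± 0.13 (adjusted p = 7.66e-15). ZNF300 held 113, 117, 77.6 and 109 CPM against 15.01, 15.1, 17.1 and 17.5 CPM, a difference of -2.69 ± 0.13 (adjusted p = 2e-14). Neither gene had an overlap between the fractions. ZNF550 (-2.80 ± 0.18) and ZNF789 (-2.72 ± 0.18) had the same direction, and so did the pseudogene row ZNF767 (-3.16 ± 0.25).

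The members that were higher in polysomal RNA were few, and some of them have roles outside transcription. ZNF622, a factor of late 60S ribosomal subunit maturation, held 17.9, 20.5, 19.8 and 22.6 CPM in control subpolysomal RNA and 45.1, 41.3, 68.8 and 41.1 CPM in polysomal RNA. The fractions did not overlap, and the difference was 1.28 ± 0.15 (adjusted p = 6.03e-08), or 1.09 ± 0.09 (adjusted p = 3.33e-10) without replicate 3. ZNF428, whose protein matched 1 finger, held 3.53, 3.27, 7.76 and 6.54 CPM against 22.0, 19.96, 8.49 and 16.2 CPM (1.67 ± 0.27, adjusted p = 5.45e-06), and its lowest polysomal value came from replicate 3. ZNF330, a nucleolar protein in which no C2H2 match was found, was higher by 1.04 ± 0.15, ZNF777 by 1.08 ± 0.20 and ZNF697 by 0.89 ± 0.12.

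**Figure D2:**
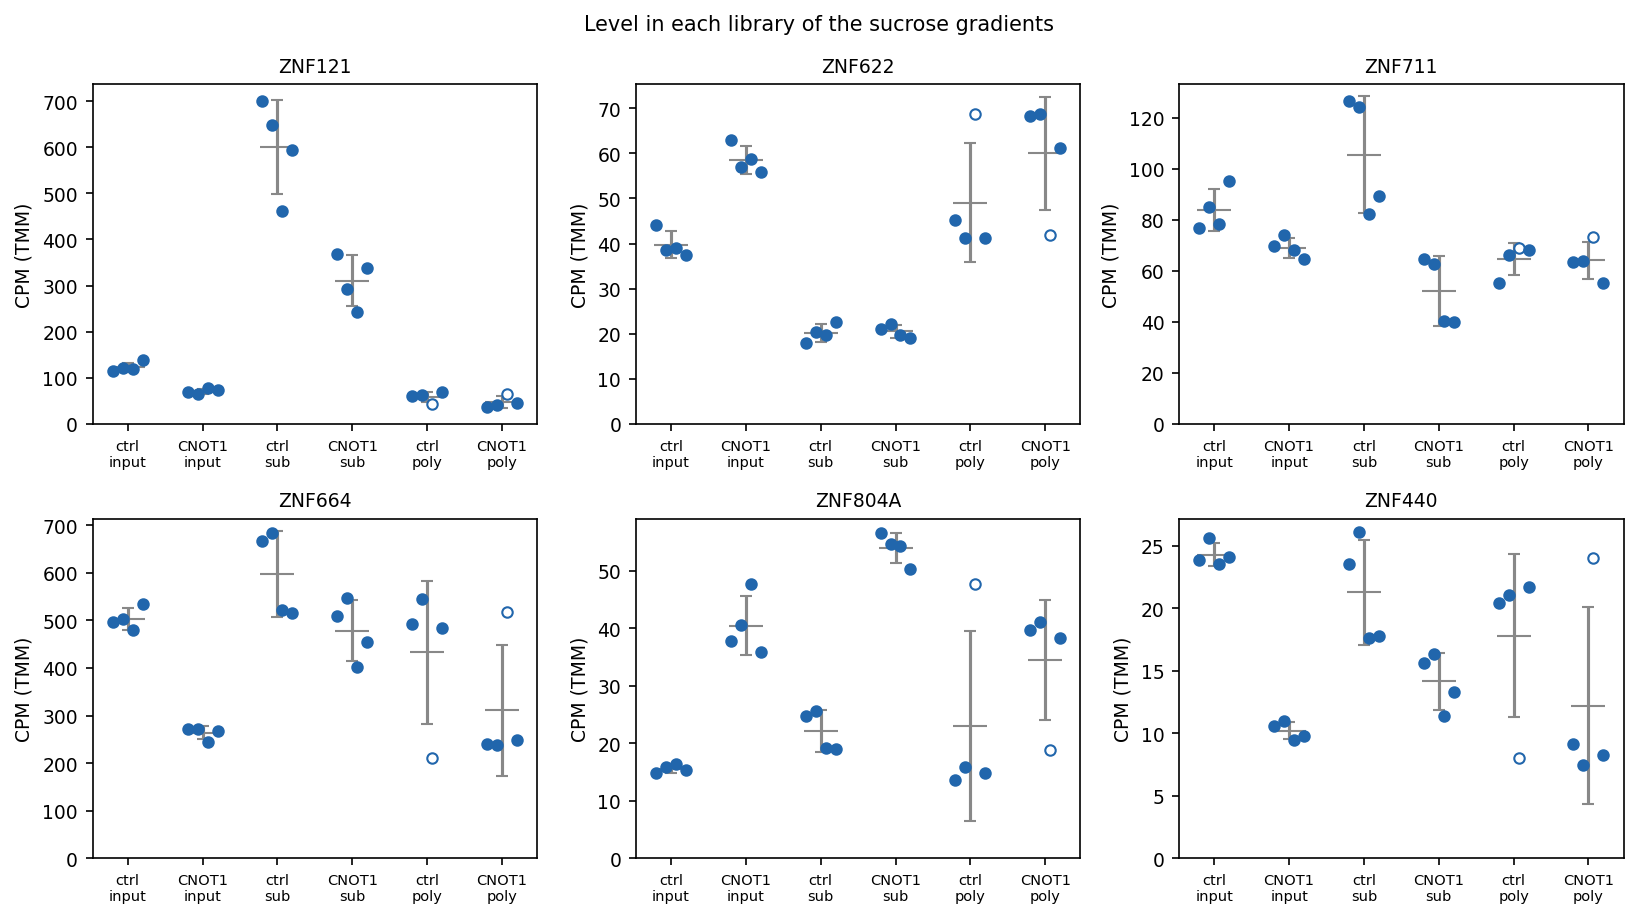
TMM-adjusted CPM of 6 members in every gradient library, by fraction and siRNA; each point is a library, hollow points are the polysomal libraries of replicate 3, and bars give mean ± SD of the 4 libraries. The 4 control subpolysomal values of ZNF121 (463 to 700 CPM) lie above its polysomal values (42.6 to 68.6 CPM), and the hollow points of ZNF804A and ZNF440 lie with the other siRNA.

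The KRAB members had the lower median on the gradient. In control cells 137 of the 164 KRAB members were lower in polysomal RNA, with a median log2 difference of -1.05, against 65 of the 123 members without the pattern and a median of -0.43. Without the libraries of replicate 3 the counts were 137 and 72 and the medians -0.98 and -0.50. Among KRAB members the median was -1.05 both for the 104 on chromosome 19 and for the 60 elsewhere. By linkers, the 78 members with none had a median of -0.29 and the 123 with 5 or more of -0.99 (-0.42 and -0.94 without the pair). By base composition, the 55 members with a CDS GC content of at least 55% had a median of -0.26, and the 153 with less than 45% of -0.92. KRAB, linkers and GC content run together in this family, and the part of each was not tested.

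**Figure D3:**
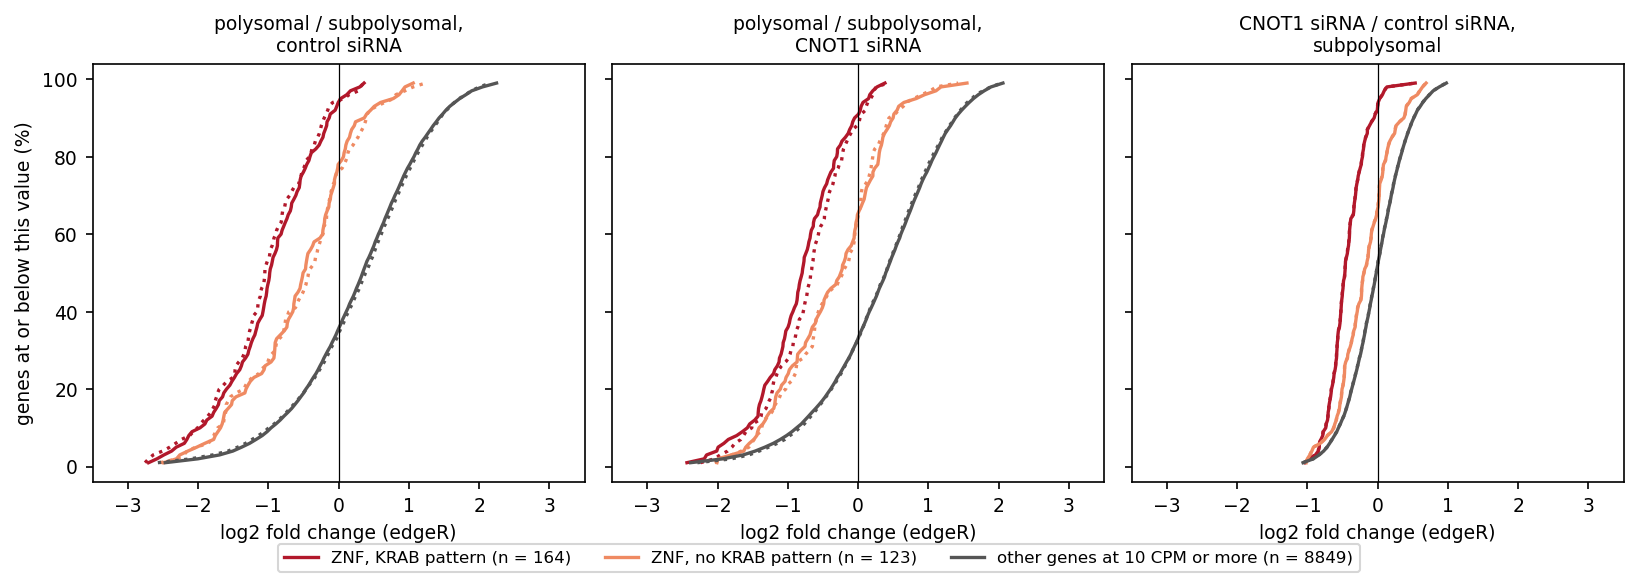
Cumulative share of genes (%) by log2 difference, in 3 panels, for KRAB members (n = 164), members without the pattern (n = 123) and the 8849 other genes above the level of 10 CPM; solid curves are without both polysomal libraries of replicate 3, dotted curves as labelled. In the panel of polysomal against subpolysomal RNA in control cells, the KRAB curve lies to the left of the others, with its median at -0.98 without those libraries.

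List counts are to be read beside the shares of all genes called higher and lower in polysomal RNA. In control cells these were 34.8% and 37% (33.7% and 38.4% without the pair). After CNOT1 siRNA they were 34.1% and 34.7% (36% and 35.9% without the pair). Members known for roles outside DNA binding formed a list of 9 genes, of which 8 were members. Of these 8, 3 were higher in control polysomal RNA and 1 lower, with a median of 0.23 (2 and 1, with 0.20, without the pair), and 4 were higher and 1 lower after CNOT1 siRNA, with a median of 0.44 (5 and 1, with 0.49, without the pair). ZNF622 and ZNF593, a factor of pre-60S ribosomal particles, were among them, ZNF593 with 0.86 ± 0.29 (adjusted p = 0.0115) in control cells without the pair. ZNF598, the ubiquitin ligase that marks collided ribosomes, had 0.25 ± 0.28 (adjusted p = 0.427) in the same fit, and ZNF638 had 0.23 ± 0.11 (adjusted p = 0.0797). The log2 ratio of ZNF598 was 1.33, 0.93, -0.03 and -0.58 in control replicates 1 to 4. Of 5 KRAB or SCAN-KRAB repressors listed for repeats or imprinted loci, 4 were lower and none higher in control polysomal RNA, with a median of -1.15. Among them, without the pair, ZNF202, better known as a repressor of lipid genes, had -1.62 ± 0.09, ZNF274, which binds the 3′ ends of ZNF genes themselves, -1.40 ± 0.09, the imprinting regulator ZNF445 -1.16 ± 0.13 and ZNF91, a repressor of SVA elements, -0.74 ± 0.17. ZNF10, the source of the KRAB domain used in CRISPR interference, had -0.15 ± 0.15 (adjusted p = 0.384). Of 14 well studied transcription regulators among the members, 8 were lower and 2 higher, with a median of -0.61 (10 and 0 without the pair).

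The partners of KRAB proteins mostly had positive differences, as did the other genes above this level, of which 52.2% were higher with a median of 0.38. Of 17 genes of the KRAB corepressor pathway, none of which is a member, 12 were higher in control polysomal RNA and none lower, with a median of 0.79 (12 and 1, with 0.67, without the pair). TRIM28 had 1.66 ± 0.21 (adjusted p = 1.19e-07), and CBX1, a heterochromatin protein, 1.99 ± 0.13 (adjusted p = 1.12e-12). Control subpolysomal TRIM28 stood at 139 and 137 CPM in replicates 1 and 2 and at 239 and 236 CPM in replicates 3 and 4. SETDB1 had -0.17 ± 0.11 (adjusted p = 0.174), and it is the gene called lower without the pair, with -0.30 ± 0.09 (adjusted p = 0.00393).

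After CNOT1 siRNA the same comparison gave 185 members lower and 21 higher in polysomal RNA, where 34.7% and 34.1% of all genes were called, and a median of -0.60. Without the libraries of replicate 3 there were 198 lower and 26 higher, against 35.9% and 36% of all genes, and the median was -0.68. KRAB members had a median of -0.79 and those without the pattern of -0.25 in that fit. ZNF26, which has 14 finger matches, was among the members higher in polysomal RNA: it held 10.4, 11.2, 9.38 and 9.72 CPM in subpolysomal and 23.5, 21.7, 20.6 and 23.6 CPM in polysomal RNA, a difference of 1.13 ± 0.13 (adjusted p = 2.96e-08). ZNF622 (1.55 ± 0.15) and ZNF330 (1.51 ± 0.15) were again higher, and ZNF224, a KRAB protein, was among the lowest with -2.17 ± 0.19 (-2.45 ± 0.14 without the pair).

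The next question is how ZNF mRNAs responded to the loss of CNOT1. In subpolysomal RNA 144 members fell after CNOT1 siRNA and 12 rose, where 19.1% and 13% of all genes were called, and the median log2 fold change was -0.39 against -0.07 over all genes and -0.02 over the other genes above this level. When the fit left out the polysomal pair, whose spread enters the shared estimate, the counts were 167 and 15, against 24.3% and 17.7%. Of the KRAB members 99 of 164 fell, with a median of -0.47, and of the rest 42 of 123, with a median of -0.20 (115 and 49 without the pair).

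ZNF77, ZNF333 and ZNF711 show the size of the fall. ZNF77 held 34.2, 38.2, 25.7 and 30.9 CPM in control and 15.7, 14.1, 11.5 and 14.4 CPM in CNOT1-depleted subpolysomal RNA, a log2 fold change of -1.21 ± 0.16 (adjusted p = 9.25e-06). ZNF333, a KRAB protein, held 36.7, 28.5, 32.9 and 25.7 CPM against 14.8, 11.8, 11.3 and 13.9 CPM (-1.26 ± 0.23, adjusted p = 0.000325). ZNF711, an X-linked activator mutated in intellectual disability, held 127, 124, 82.2 and 89.6 CPM against 64.7, 62.9, 40.2 and 40.1 CPM (-1.02 ± 0.16, adjusted p = 4.54e-05). None of the 3 had an overlap between the siRNAs. In ZNF417 the change was -1.06 ± 0.25, and in ZNF767 -1.24 ± 0.23.

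Among the 12 that rose in subpolysomal RNA was ZNF804A, a gene named in association studies of schizophrenia. Its control values were 24.8, 25.7, 19.1 and 18.95 CPM and its values after CNOT1 siRNA 56.5, 54.7, 54.3 and 50.4 CPM, a change of 1.28 ± 0.28 (adjusted p = 0.00141). The groups stood apart in every library. ZNF41 rose by 0.72 ± 0.16, ZNF609 by 0.70 ± 0.18, ZNF229 by 0.54 ± 0.18 and ZNF584 by 0.53 ± 0.17.

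In input RNA the control libraries are those that chose the members, so the counts are a description only. After CNOT1 siRNA 105 members were lower and 15 higher, beside 15.6% and 13.4% of all genes, with 129 and 32 without the polysomal pair, beside 21.1% and 19.6%. ZNF440, a KRAB protein, stood at 23.8, 25.6, 23.6 and 24.1 CPM in control input and at 10.6, 11.0, 9.49 and 9.80 CPM after CNOT1 siRNA. ZNF804A stood at 14.8, 15.8, 16.4 and 15.3 CPM and at 37.9, 40.5, 47.6 and 35.8 CPM. ZNF664, the highest member, stood at 480 to 534 CPM and at 244 to 273 CPM. These 3 did not overlap between the siRNAs.

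In polysomal RNA the result rested on whether the pair of replicate 3 was kept. As labelled, no member and no gene was called in either direction (0% and 0%) by edgeR or by DESeq2, with 4 members higher and 8 lower at an unadjusted p under 0.05 in edgeR, beside 2.58% and 4.11% of all genes. Without the pair 71 members were lower and 28 higher after CNOT1 siRNA, where 14.6% and 17.1% of all genes were called, and the median was -0.15 against 0.00 over all genes. KRAB members made up 52 of the 71 that were lower and 6 of the 28 that were higher, beside 57.1% of the 287 members with an annotated CDS.

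Single members show what the pair did. ZNF804A held 13.6, 15.9 and 14.9 CPM in control polysomal replicates 1, 2 and 4 and 47.7 CPM in replicate 3, and after CNOT1 siRNA 39.8, 41.1 and 38.3 CPM with 18.9 CPM in replicate 3. Without the pair its change was 1.43 ± 0.12 (adjusted p = 5.26e-08). ZNF440 held 20.4, 21.1 and 21.7 CPM with 8.05 CPM in replicate 3, and after CNOT1 siRNA 9.15, 7.47 and 8.23 CPM with 24.003 CPM in replicate 3 (-1.35 ± 0.15, adjusted p = 1.12e-06, without the pair). ZNF664 held 492, 544 and 485 CPM with 211 CPM, and after CNOT1 siRNA 240, 239 and 248 CPM with 517 CPM (-1.06 ± 0.12, adjusted p = 9.34e-07, without the pair). In each of the 3 the replicate 3 value lay nearer to the group of the other siRNA than to its own.

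The CNOT1 effect differed between the fractions for part of the family. Tested as an interaction, the log2 effect in polysomal minus that in subpolysomal RNA was above 0 for 28 called members and below 0 for 1, where 3.26% and 2.4% of all genes were called, with a median of 0.31 against 0.05. Without the pair 45 were called above and 7 below, against 9.99% and 7.51% of all genes, and the median was 0.21 against 0.07 over all genes and 0.04 over the other genes above this level. The other genes above this level were called above 0 in 15.8% of cases in that fit and the members in 15.4%. In that fit 18 of the 164 KRAB members and 27 of the 123 without the pattern were called above 0.

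ZNF711 stood at the head of the interaction as labelled. Its control polysomal values of 55.3, 66.1, 69.0 and 68.1 CPM overlapped with the 63.6, 64.0, 73.4 and 55.3 CPM after CNOT1 siRNA, beside the fall in subpolysomal RNA given above. Its log2 ratio of the fractions was -1.19, -0.90, -0.25 and -0.39 in control replicates and -0.02, 0.03, 0.86 and 0.46 after CNOT1 siRNA. The interaction was 1.01 ± 0.22 (adjusted p = 0.00778) as labelled and 0.97 ± 0.23 (adjusted p = 0.00542) without the pair. In ZNF77 it was 0.92 ± 0.23, in ZNF691 0.92 ± 0.25, in ZNF449 0.88 ± 0.23 and in ZNF621 0.83 ± 0.18. These values are as labelled, and in each of these genes the ratio after CNOT1 siRNA was highest in replicate 3. In ZNF77 it was -0.94, -0.91, 0.16 and -0.87 in replicates 1 to 4.

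Without the pair ZNF800 and ZNF367 had the highest interactions. ZNF800 held 51.8, 59.9 and 53.5 CPM in control subpolysomal replicates 1, 2 and 4 and 43.3, 40.7 and 46.3 CPM after CNOT1 siRNA, while its polysomal values went from 28.98, 30.2 and 33.0 CPM to 54.7, 48.1 and 46.1 CPM. In these 3 replicates the change in the fractions had opposite directions. The fit also used subpolysomal replicate 3, which is not printed here, so the fall in subpolysomal RNA is not shown for every library. The interaction was 1.01 ± 0.17 (adjusted p = 0.000355). ZNF367 had 1.00 ± 0.15, ZNF692 0.95 ± 0.21 and ZNF211, a KRAB protein, 0.88 ± 0.17. On the other side stood ZNF395 with -0.85 ± 0.14. In replicates 1, 2 and 4 it held 14.6, 17.0 and 16.7 CPM in control and 19.4, 22.2 and 23.2 CPM in CNOT1-depleted subpolysomal RNA. Its polysomal values went from 30.7, 30.05 and 28.0 CPM to 19.1, 23.2 and 22.6 CPM. ZNF440 (-0.76 ± 0.20), ZNF664 (-0.75 ± 0.15), ZNF704 (-0.68 ± 0.22) and ZNF678 (-0.53 ± 0.15) had the same direction in that fit, and for ZNF440 and ZNF678 the sign was the opposite as labelled.

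The helicase IPs ask which of these mRNAs each helicase held. In eIF4A2 IPs 97 members were enriched over total RNA and 42 were depleted, where 24.5% and 25.8% of all 17474 genes were called. With the replicate number as a block, 117 were enriched and 65 depleted, against 30.4% and 31.9%. The median log2 difference was 0.14 in members, 0.01 over all genes and -0.22 over the other genes above this level. In eIF4A1 IPs 72 were enriched and 67 depleted, against 26.1% and 26.5% of all genes, and in DDX6 IPs 61 and 68, against 22.7% and 23.3%. Medians were -0.03 in members and -0.18 in the other genes above this level for eIF4A1, and -0.09 and -0.11 for DDX6. Against that second reference, 22.9% of members and 37.5% of the other genes were depleted with eIF4A1, 14.4% and 38.9% with eIF4A2, and 23.3% and 30.8% with DDX6. The 3 IPs are set against the same total RNA libraries, and each comparison is given with its own values.

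ZNF664, the most abundant member, was enriched in all 3 IPs. It held 412, 431 and 480 CPM in total RNA, 1220, 1395 and 1368 CPM in eIF4A1 IPs, 1297, 1592 and 1284 CPM in eIF4A2 IPs, and 1090, 1259 and 1220 CPM in DDX6 IPs. The log2 differences were 1.59 ± 0.15 (adjusted p = 3.88e-06), 1.66 ± 0.15 (adjusted p = 2.49e-06) and 1.43 ± 0.15 (adjusted p = 1.96e-05) in this order, and each IP stood above total RNA in every library. ZNF532, a partner of ZNF592 and ZNF687 in a chromatin complex, went from 37.8, 42.5 and 51.1 CPM to 111, 114 and 140 CPM in eIF4A1 IPs (1.47 ± 0.18, adjusted p = 2.17e-05), with 1.69 ± 0.18 for eIF4A2 and 1.31 ± 0.18 for DDX6. ZNF276 had 1.49 ± 0.25 for eIF4A1, 2.06 ± 0.25 for eIF4A2 and 0.87 ± 0.24 for DDX6, and ZNF32 had 1.40 ± 0.25, 1.35 ± 0.25 and 1.54 ± 0.25.

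ZNF622 was depleted from all 3 IPs. It held 41.1, 45.7 and 29.2 CPM in total RNA, 10.2, 10.3 and 8.88 CPM in eIF4A1 IPs, 11.0, 9.91 and 8.23 CPM in eIF4A2 IPs and 14.7, 14.7 and 11.5 CPM in DDX6 IPs. No IP library reached the total RNA, and the differences were -1.98 ± 0.18 (adjusted p = 3.39e-06), -1.99 ± 0.19 (adjusted p = 2.8e-06) and -1.50 ± 0.18 (adjusted p = 4.36e-05). ZNF207 went from 337, 340 and 342 CPM to 143, 125 and 137 CPM in eIF4A1 IPs (-1.34 ± 0.13, adjusted p = 5e-06) and had -0.90 ± 0.13 for eIF4A2 and -1.34 ± 0.13 (adjusted p = 1.47e-05) for DDX6. ZNF829, a KRAB protein, had -1.42 ± 0.29 for eIF4A1, -1.49 ± 0.30 for eIF4A2 and -0.72 ± 0.29 (adjusted p = 0.0560) for DDX6.

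**Figure D4:**
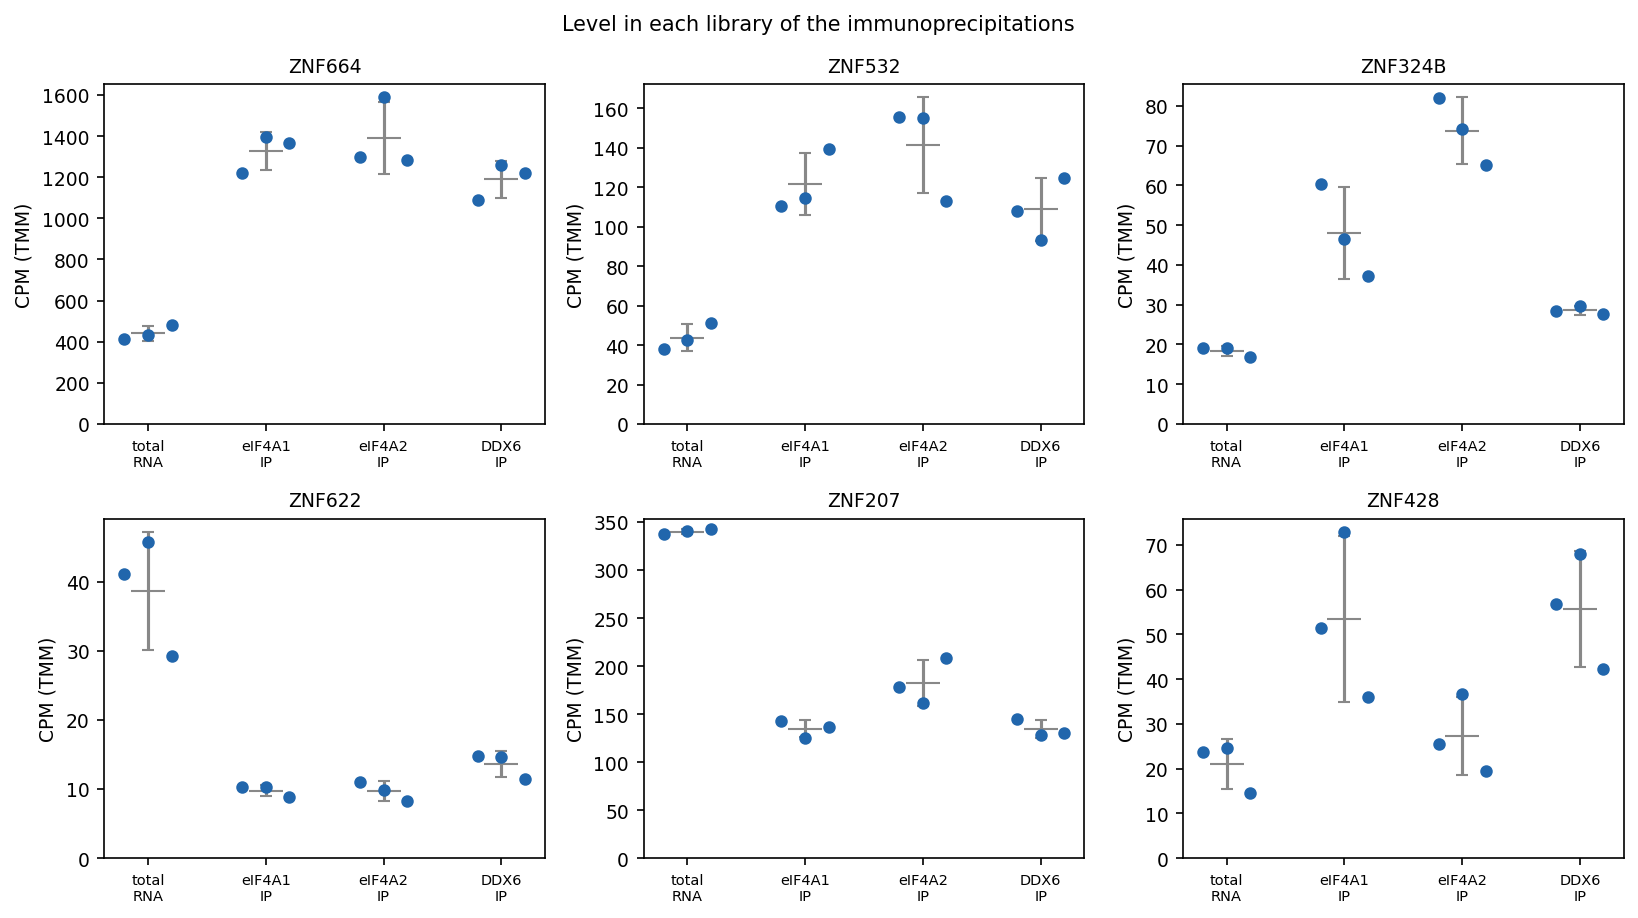
TMM-adjusted CPM of 6 members in the 12 RIP libraries, by group (total RNA first, then the IP of each helicase); points are libraries (n = 3 per group) and bars give mean ± SD. ZNF664 lies at 412 to 480 CPM in total RNA and above 1000 CPM in every IP, and ZNF622 is lower in every IP.

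By base composition, of the 55 with a CDS GC content of at least 55%, 28 were enriched in eIF4A1 IPs (50.9%) and 1 depleted (1.82%), beside 26.1% and 26.5% of all genes, with a median of 0.45, and of the 153 with less than 45%, 26 were enriched (17.0%) and 44 depleted (28.8%), with a median of -0.08. For eIF4A2 the counts were 24 and 5 (median 0.37) in the GC-rich members and 46 and 24 (median 0.14) in the AT-rich ones, beside 24.5% and 25.8% of all genes. For DDX6 they were 16 and 3 (median 0.25) and 24 and 39 (median -0.17), beside 22.7% and 23.3%. With the replicate block the GC-rich counts were 32 and 8 for eIF4A1, 30 and 11 for eIF4A2, and 25 and 7 for DDX6, beside 32.4% and 32%, 30.4% and 31.9%, and 29.6% and 30.4% of all genes. Over all 292 members, 33.2% were enriched and 14.4% depleted with eIF4A2, and 24.7% and 22.9% with eIF4A1. With 5 or more linkers, 42 of 123 members (34.1%) were enriched in eIF4A2 IPs and 14 (11.4%) depleted, close to the shares of all members. In eIF4A1 IPs 21 of the 123 (17.1%) were enriched and 29 (23.6%) depleted. These subsets share CDS length, base composition and gene clusters, and no test was made between them.

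Set against each other, the IPs differed most between eIF4A2 and DDX6. There 79 members were higher in eIF4A2 IPs and 10 lower, where 9.82% and 11.3% of all genes were called. The median difference was 0.24 in members, -0.00 over all genes and -0.14 over the other genes above this level. With the replicate block 123 were higher and 23 lower, against 18.5% and 22%. Of the KRAB members, 50 of 164 were higher in eIF4A2 IPs, and of the rest 28 of 123 (80 and 41 with the block).

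ZNF324B, a KRAB protein, led the members with a higher share in eIF4A2 than in DDX6 IPs. It held 19.1, 19.03 and 16.8 CPM in total RNA, 60.3, 46.5 and 37.3 CPM in eIF4A1 IPs, 81.9, 74.1 and 65.1 CPM in eIF4A2 IPs and 28.4, 29.7 and 27.5 CPM in DDX6 IPs. Every eIF4A2 library stood above every DDX6 library, with a difference of 1.37 ± 0.17 (adjusted p = 0.00137). ZNF778 held 56.5, 55.6 and 66.7 CPM with eIF4A2 and 24.1, 21.7 and 27.4 CPM with DDX6 (1.29 ± 0.14, adjusted p = 0.00114), ZNF266 had 1.26 ± 0.17, ZNF445 1.20 ± 0.23 and ZNF276 1.19 ± 0.24. ZNF428 went the other way, with 25.6, 36.6 and 19.5 CPM against 56.8, 68.0 and 42.3 CPM (-1.03 ± 0.29, adjusted p = 0.0262), and so did ZNF593 (-1.23 ± 0.36, adjusted p = 0.0296).

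Between eIF4A2 and eIF4A1 the calls turned on the block. Without it 4 members were higher with eIF4A2 and none lower, where 0.973% and 0.0858% of all genes were called, while 66 and 6 had an unadjusted p under 0.05, beside 9.43% and 8.41% of all genes, and DESeq2 called 27 and 1, beside 2.71% and 0.808% of the genes to which it gave an adjusted p. With the block 58 were higher and 9 lower, against 7.12% and 8.7% of all genes. Of these 58, 39 were KRAB members, beside 57.1% of the 287 members with an annotated CDS, and the difference was not tested. The 4 called without it were the KRAB mRNAs ZNF354B (0.85 ± 0.16, adjusted p = 0.0254), ZNF331 (0.76 ± 0.13, adjusted p = 0.0126), ZNF778 (0.74 ± 0.14, adjusted p = 0.0254) and ZNF615 (0.63 ± 0.12, adjusted p = 0.02). ZNF331 held 97.3, 91.3 and 110 CPM with eIF4A2 and 65.0, 54.7 and 56.6 CPM with eIF4A1, which did not overlap.

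Between DDX6 and eIF4A1 no member was called by edgeR without the block, where 0.0801% and 0.0114% of all genes were called higher and lower with DDX6. At an unadjusted p under 0.05 there were 16 members higher and 39 lower, beside 7.67% and 6.28% of all genes, and DESeq2 called 4 and 8, beside 3.19% and 1.49%. With the block 10 were higher and 23 lower, against 6.08% and 3.82%.

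The lists gave small counts in the IPs, to be read beside the shares of all genes, which were 26.1%, 24.5% and 22.7% enriched and 26.5%, 25.8% and 23.3% depleted for eIF4A1, eIF4A2 and DDX6. Of the 8 members with roles outside DNA binding, 3 were depleted and none enriched in each of the 3 IPs. Of the 5 repressors of repeats or imprinted loci, 3 were enriched with eIF4A2 and none depleted. Also 3 of the 5 were higher with eIF4A2 than with DDX6, beside 9.82% of all genes and 27.1% of all members. Of the 14 well studied regulators, 5 were enriched and 4 depleted with eIF4A1, 6 and 2 with eIF4A2, and 5 and 3 with DDX6. Of the 17 corepressor genes, 11, 10 and 10 were depleted in this order and none was enriched, TRIM28 among them with -0.97 ± 0.18, -0.9999 ± 0.18 and -1.07 ± 0.18.

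**Figure D5:**
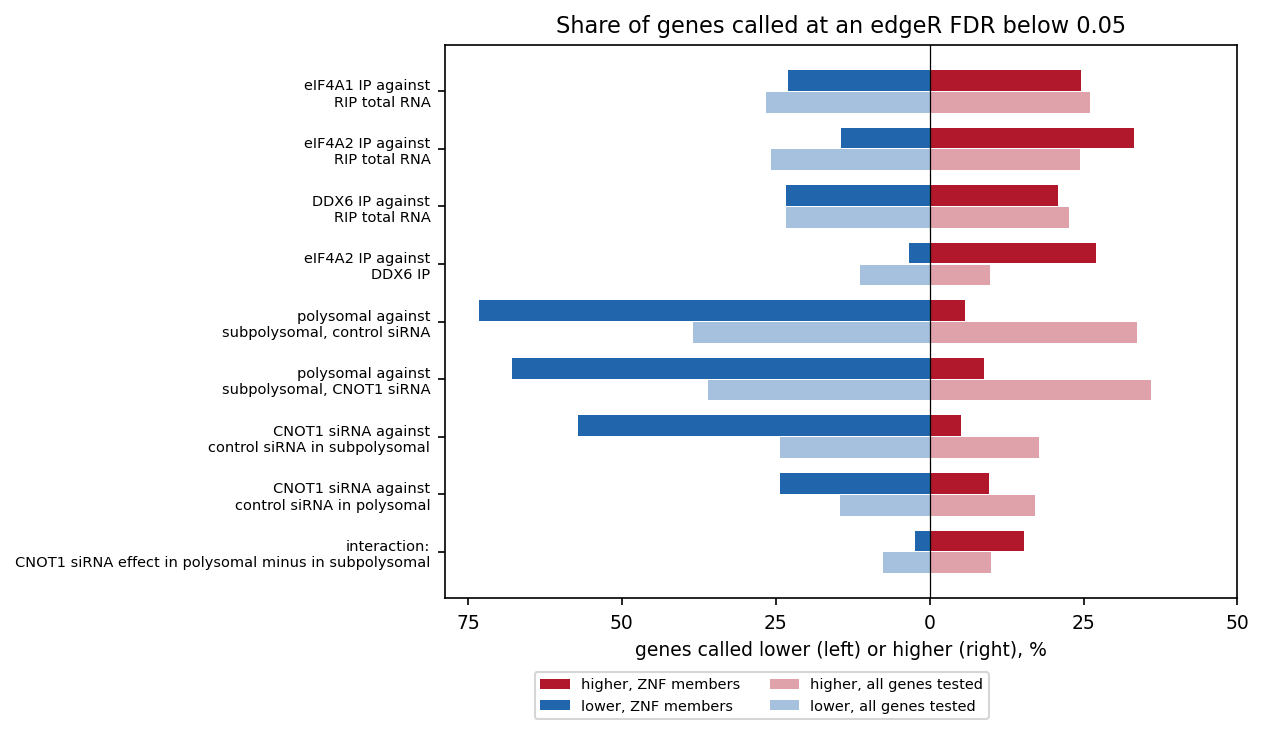
Share (%) of the 292 members and of all genes tested that were called higher or lower in 9 comparisons, at an adjusted p under 0.05; the gradient comparisons are those without both polysomal libraries of replicate 3. The widest gap is that of polysomal against subpolysomal RNA in control cells, where 73.3% of members and 38.4% of all genes were lower.

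Depletion of TNRC6A and TNRC6B called no member and no gene with edgeR (0% and 0% of 14064 tested), with 1 member higher and 1 lower at an unadjusted p under 0.05, beside 1.23% and 0.825% of all genes, and DESeq2 called no member and 0.00401% of its genes higher. With 2 libraries a group the targeted mRNAs themselves missed the threshold, TNRC6A with -1.80 and TNRC6B with -1.68 (adjusted p = 0.9999 for both). This fit also ignored the replicate numbers, although same-numbered control and TNRC6A/B siRNA libraries deviated together (r = 0.929). A few members were called with the replicate block, as given in the section on processing, so the absence of calls holds for the unblocked fit. The pair of members below 0.05, chosen after their values were seen, were ZNF367, with 26.8 and 51.2 CPM in control and 95.6 and 111.6 CPM after TNRC6A/B siRNA, and the KRAB mRNA ZNF589, with 100.4 and 115.1 CPM against 68.3 and 77.5 CPM. By matches to the miR-181a-5p seed in the CDS, the median log2 fold change was -0.07 in the 105 members with none, -0.02 in the 54 with 1 or 2 and -0.10 in the 128 with 3 or more, beside -0.03 over all genes.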

How the data were processed

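RNA-Seq counts per gene, 1 table per library, were the values used. To make them, the authors sequenced TruSeq Stranded libraries on a NextSeq500, converted the runs with bcl2fastq 2.0 (per the labels), aligned the reads to hg19 with TopHat2 and counted them per gene with HTSeq; the strand setting of the count is not given in the sources used here. The deposited counts were used unscaled for the level rule and with TMM factors otherwise. A merged table of the authors holds their own edgeR comparisons (log2 fold changes, expression scores and p-values) and was not used.

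Each experiment was fitted on its own with edgeR 4.0.16 in R 4.3.3 (filterByExpr, TMM factors, quasi-likelihood test on group means, two-sided) and p-values were adjusted by Benjamini-Hochberg over all genes of that fit. A gene was called at an adjusted p under 0.05, and members were counted afterwards. DESeq2 1.42.0, other size factors, no low-count filter, a replicate block, fits of only the compared groups, fits without both polysomal libraries of replicate 3 and leave-one-out fits were the alternatives. In the RIP experiment same-numbered libraries deviated together in all 18 pairs (r from 0.173 to 0.884). Total RNA replicate 1, however, had a higher r with replicate 2 of the eIF4A1 IP (0.395 against 0.261) and of the DDX6 IP (0.353 against 0.230). Pairing of the IPs to total RNA by number is therefore not settled. The main calls ignore the numbers, and the blocked values are given where they moved a count by over 1.5 times. The scripts were tested on simulated data.

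The members and the gene lists were chosen with earlier results of these data known. Named genes are, per comparison, the 5 called members with the largest change in each direction whose libraries do not overlap, list members, the 5 most abundant members and those beside the level rule; subsets of these are printed. Coordinates, transcripts and CDS features come from a GRCh37 annotation (GENCODE v44 lifted), with 1 transcript per gene: 287 members matched by current symbol, 4 by an older one and ZNF720 by none. Depth of 15353317 to 46018900 counts per library sets the counting precision, and CPM are shares of a library.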

Additional observations from a re-analysis of the deposited data

Results flagged for a closer look

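Of 58 groups of 4 libraries checked for a library far from the rest, 8 had one, and each of these was a polysomal library of replicate 3. The groups are mostly those of members shown here, many chosen for their effects, and the same libraries recur. A rate by chance of about 1 group in 20 holds for unselected, independent groups and is no measure for these. In the library labelled control, ZNF622 stood at 68.8 CPM (41.1 to 45.1 in the others), ZNF804A at 47.7 CPM (13.6 to 15.9), ZNF440 at 8.05 CPM (20.4 to 21.7) and ZNF800 at 61.2 CPM (28.98 to 33.0). In the library labelled CNOT1 siRNA, ZNF77 stood at 12.9 CPM (7.29 to 7.93), ZNF804A at 18.9 CPM (38.3 to 41.1), ZNF440 at 24.003 CPM (7.47 to 9.15) and ZNF664 at 517 CPM (239 to 248).

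The CNOT1 siRNA effect differed between polysomal and subpolysomal RNA by the interaction test in 28 members above 0 and 1 below as labelled, beside 3.26% and 2.4% of all genes, and in 45 (15.4%) and 7 (2.40%) without the polysomal pair, beside 9.99% and 7.51% of all genes and 15.8% and 12.7% of the other genes above 10 CPM, so that the share above 0 was close to that of the latter. As labelled, the named differences were 1.01 in ZNF711, 0.92 in ZNF691, 0.92 in ZNF77, 0.88 in ZNF449 and 0.83 in ZNF621. Without the pair they were 1.01 in ZNF800, 1.00 in ZNF367, 0.97 in ZNF711, 0.95 in ZNF692 and 0.88 in ZNF211, and on the other side -0.85 in ZNF395, -0.76 in ZNF440, -0.75 in ZNF664, -0.68 in ZNF704 and -0.53 in ZNF678.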

How the results depend on the processing

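Counts are members called higher and lower. The share of all genes called moved between settings as well and is not printed beside each count here. These counts show how the calls depend on the processing and do not set members against all genes. Another scaling (RLE size factors) moved no count by over 1.5 times, and the depletion from control polysomal RNA stayed at 201 to 214 lower and 17 to 21 higher in the leave-one-out fits, with 10 higher when only the compared groups were fitted. The cause of the moves below was not tested. With the replicate block, eIF4A2 IP had 65 lower, eIF4A2 against eIF4A1 58 and 9, eIF4A2 against DDX6 123 and 23, and DDX6 against eIF4A1 10 and 23. DESeq2 gave 27 and 1 for eIF4A2 against eIF4A1, 4 and 8 for DDX6 against eIF4A1, 23 higher in input and 2 lower in the interaction. With no low-count filter eIF4A2 against eIF4A1 had 10 and 3, DDX6 against eIF4A1 1 and 1, the interaction 9 and 0, and TNRC6A/B siRNA 1 higher. With only the compared groups eIF4A2 against eIF4A1 had 0 higher, input 56 and 161, and the interaction 2 and 0. Without both polysomal libraries of replicate 3 input had 32 and 129, polysomal RNA 28 and 71 and the interaction 45 and 7; with the replicate block as well, input had 36 higher, polysomal RNA 32 and 93 and the interaction 62 and 10. In the gradient the numbers did not pair the samples in every pair, and the block alone moved no count by over 1.5 times. In the TNRC6A/B experiment, with 2 pairs, the block gave 4 and 2.

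Leaving out 1 library gave ranges of 42 to 63 lower for eIF4A1 IP (42 without total RNA replicate 3), 0 to 8 higher for eIF4A2 against eIF4A1 (0 without eIF4A1 IP replicate 2 or 3, 1 without eIF4A2 IP replicate 1 or 3, 8 without eIF4A1 IP replicate 1), and 43 to 67 and 1 to 11 for eIF4A2 against DDX6 (43 without DDX6 IP replicate 2, 46 without eIF4A2 IP replicate 1, 50 without DDX6 IP replicate 3, and 1, 2, 3 and 5 lower without eIF4A2 IP replicate 3, DDX6 IP replicate 2, eIF4A2 IP replicate 1 and DDX6 IP replicate 1). In input they were 8 to 14 and 61 to 72 (8 or 9 higher without control replicate 1, 3 or 4 or CNOT1 siRNA replicate 1 or 3; 61 lower without control replicate 2 or CNOT1 siRNA replicate 3, and 69 and 65 without CNOT1 siRNA replicates 1 and 4). In polysomal RNA they were 0 to 20 and 0 to 18, with 20 and 8 without control replicate 3 and 18 lower without CNOT1 siRNA replicate 3. In the interaction they were 15 to 42 and 0 to 1, with 15 without control subpolysomal replicate 1 or CNOT1 siRNA subpolysomal replicate 3 and 17 without control polysomal replicate 2; the 1 lower call, ZNF395, was lost in 9 of these fits. The interaction of ZNF440 turned negative with no filter (-0.0578), without the polysomal pair (-0.761, and -0.763 with the replicate block) and in leave-one-out fits (range -0.518 to 0.213), and that of ZNF678 without the pair (-0.528 with and without the block) and in leave-one-out fits (range -0.357 to 0.273).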
